A study of Mus musculus with 4 samples.

Results

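Chromosome 15 was followed from end to end in the peaks that the V5-tagged transcription factor Foxr2 gave in a mouse brain tumor line. All of its peaks in both Foxr2 p53LOF peak lists were taken, 1824 of 31909 in replicate 1 and 2273 of 38580 in replicate 2, and they were laid out in 21 windows of 5 Mb. The question was whether the very high enrichment at the promoters of Cbx5, Kansl2 and Tef follows a local shift or one of the whole chromosome, with chromosomes 2 and 9 as the reference. The chromosome and the 3 promoters were selected on the same enrichment values that are described here, so every value is given as a description and no test was run on them. Foxr2 binding was mapped by CUT&RUN, in which an antibody (here against the V5 tag) tethers a nuclease that releases the DNA around a bound protein for sequencing. The 2 Foxr2 p53LOF libraries came from a line grown from a C57BL/6J tumor, which was induced by in utero electroporation of a vector with V5-tagged FOXR2 together with loss of p53. The 2 V5 control libraries came from a separate C57BL/6J electroporation model with the genotype H3.3G34R, which lacks the tag. The control therefore differs from the Foxr2 p53LOF line in its oncogenic alterations as well as in the tag, both lines carry alterations introduced by electroporation, and the labels do not say whether replicates are separate cultures.

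Foxr2 belongs to the forkhead family of DNA-binding proteins and is silent in most tissues, but it is switched on in several childhood tumors, among them a class of neuroblastoma of the brain. Cbx5 encodes the heterochromatin protein HP1 alpha, which reads methylated histone H3 and helps to keep chromatin compact. Kansl2 encodes a subunit of the NSL complex, which acetylates histone H4 at the promoters of housekeeping genes. Tef encodes a bZIP factor of the PAR family with a circadian rhythm of expression. Each peak carries a fold enrichment, the ratio of the fragments at its summit to the background of its library, each with 1 fragment added. A promoter peak is one that reaches into the 1 kb on either side of a protein-coding transcript start, all other peaks are distal, and a weak distal peak has a fold of 6 or less.

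Sequences at or beside the summits are shown for the 3 promoters, for the promoter of Cyb5r3 (cytochrome b5 reductase), whose folds lie near the chromosome's median in both replicates, and for the strongest distal site without a control peak, within the gene Trio (a guanine nucleotide exchange factor). Each is 200 bases of the forward strand of GRCm38, outside annotated exons. Capitals mark a CCAAT box (its 5 letters), an E-box (CACGTG), a GC box (GGGCGG) or an ETS core (CCGGAAG), searched on both strands, none of which overlaps another in these windows.
Cbx5, chr15:103240022-103240221: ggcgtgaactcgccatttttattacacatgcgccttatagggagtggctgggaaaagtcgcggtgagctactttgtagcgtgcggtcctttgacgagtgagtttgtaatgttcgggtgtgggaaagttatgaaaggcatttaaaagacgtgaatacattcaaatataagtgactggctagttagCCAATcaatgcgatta
Kansl2, chr15:98534265-98534464: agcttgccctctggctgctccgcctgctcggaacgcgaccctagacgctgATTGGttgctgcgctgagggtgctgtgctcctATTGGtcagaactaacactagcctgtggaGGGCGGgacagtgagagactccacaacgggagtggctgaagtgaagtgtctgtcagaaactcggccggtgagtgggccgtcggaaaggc
Tef, chr15:81811151-81811350: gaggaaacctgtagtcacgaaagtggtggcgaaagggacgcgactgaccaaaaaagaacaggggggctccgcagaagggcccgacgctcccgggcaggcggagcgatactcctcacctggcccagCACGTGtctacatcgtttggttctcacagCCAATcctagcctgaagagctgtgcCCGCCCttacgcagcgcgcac
Cyb5r3, chr15:83171908-83172107: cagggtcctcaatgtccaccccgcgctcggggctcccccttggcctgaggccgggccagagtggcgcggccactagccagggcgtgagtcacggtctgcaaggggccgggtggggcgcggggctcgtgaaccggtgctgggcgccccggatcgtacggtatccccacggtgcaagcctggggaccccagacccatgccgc
Trio, chr15:27937482-27937681: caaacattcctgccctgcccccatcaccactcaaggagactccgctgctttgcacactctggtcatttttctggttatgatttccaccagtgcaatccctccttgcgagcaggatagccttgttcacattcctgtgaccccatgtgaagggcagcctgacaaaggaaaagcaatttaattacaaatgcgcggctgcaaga
The Cbx5 window has 1 CCAAT box and a GC content of 44.0%, the lowest of the 5. The Kansl2 window, moved by 235 bases from the mean summit to leave the exon, lies upstream of the gene and holds neither summit, and it has 2 CCAAT boxes on the reverse strand and a GC box, at a GC content of 60.5%. The Tef window, moved by 95 bases for the same reason, has an E-box, a CCAAT box and a GC box at 61.5% GC. No match to any of the 4 motifs lies in the Cyb5r3 window, with 73.5% GC, or in the Trio window, with 50.0% GC. Among the 200-base windows at promoter summits of chromosome 15, CCAAT was present in 14.6% and 14.8% of replicates 1 and 2, GGGCGG in 32.5% and 30.4%, CACGTG in 5.19% and 3.85%, and CCGGAAG in 4.81% and 4.58%. Over the promoter summits of all chromosomes the shares were 16.3% and 17%, 32.2% and 31.2%, 4.39% and 4.11%, and 4.60% and 4.74%, in the same order. In windows of the same length at all 54086 annotated protein-coding starts, CCAAT was present in 24.6%, GGGCGG in 37.5%, CACGTG in 5.06% and CCGGAAG in 8.58%. Promoter summits of chromosome 15 thus held these letters about as often as promoter summits elsewhere.

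The depth behind a fold can be read from the lists, since each library has 1 background value at which its folds become whole fragments. The background was 1.26 fragments in Foxr2 p53LOF replicate 1 and 2.04 in replicate 2, so that 1 fragment is worth 0.442 and 0.329 units of fold. The V5 control lists held 308 and 124 peaks in all, of which 9 and 1 lie on chromosome 15. The highest Foxr2 peak of the chromosome, a distal one at chr15:75085484-75087045 with folds of 107 and 115, is also a control peak, with folds of 165 and 109. Only 2 and 3 of the chromosome's Foxr2 peaks overlap a control peak by at least 10 bp, and none of these is a promoter peak. A fold is set against a background common to the library, so more fragments per copy of a region and more copies of that region cannot be told apart in these data.

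Across chromosome 15, promoter peaks were higher than on chromosomes 2 and 9, and distal peaks were more crowded. The median fold of its 520 promoter peaks in replicate 1 was 9.50, against 7.07 on chromosome 2 and 7.51 on chromosome 9. In replicate 2 the median of its 546 promoter peaks was 10.3, against 7.56 and 7.88. The ratio to chromosomes 2 and 9 together was 1.34 and 1.31, or 1.33 ± 0.0221 (SD, n = 2 replicates), while chromosome 2 over chromosome 9 gave 0.950 ± 0.0121. Weak distal peaks numbered 968 and 1336 on the 100.65 assembled Mb of the chromosome, a density of 9.62 and 13.3 per Mb. Chromosome 2 had 4.33 and 5.50 per Mb and chromosome 9 had 4.56 and 5.75. The density ratio to both together was 2.17 and 2.37, or 2.27 ± 0.140 (SD, n = 2), against 0.953 ± 0.0039 between the reference chromosomes. Distal peaks above a fold of 6 were also denser, with 3.34 and 3.88 per Mb and ratios of 2.22 and 2.02. The larger number of distal peaks left promoter peaks as a smaller share of the chromosome, 28.5% and 24.0%, than on chromosome 2 (45.9% and 40.9%) or chromosome 9 (46.5% and 42.6%). Protein-coding genes numbered 7.80 per Mb on chromosome 15, against 10.3 and 9.99 on chromosomes 2 and 9.

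The reference chromosomes lie in the lower part of the autosomes by promoter fold and in the middle to lower part by weak distal density, which sets the size of these ratios. By weak distal density, chromosome 2 ranks 14 and 13 and chromosome 9 ranks 11 and 10 in replicates 1 and 2. By median promoter fold, chromosome 2 ranks 17 and 19 and chromosome 9 ranks 11 and 17 of the 19 autosomes in replicates 1 and 2. Chromosome 15 ranks 3 in both replicates, and it also ranks 3 by weak distal density, strong distal density and all peaks per Mb. Only chromosomes 13 and 11 had higher medians, 1.5 and 1.45 times the reference, and higher weak distal densities, 3.05 and 2.92 times the reference. Chromosomes 1, 3, 6 and 14 come next below chromosome 15. These 7 autosomes, set apart after their values were seen, had promoter medians of 8.84 to 10.6 in replicate 1 and 9.53 to 11.8 in replicate 2, and the other 12 had medians of 7.07 to 8.4 and 7.56 to 9.20. Weak distal densities of the 7 were 6.69 to 12.7 and 9.30 to 18.0 per Mb, and those of the 12 were 3.64 to 5.33 and 4.55 to 7.04. That these ranges do not overlap follows from how the 7 were set apart, and in promoter medians the gap between them is 1 fragment in each replicate, 0.442 and 0.329 units of fold. Against all other autosomes the promoter ratio of chromosome 15 was 1.18 ± 0.0196 (SD, n = 2) and the weak distal ratio was 1.6 ± 0.031. The X chromosome was lower in both measures, with 0.781 and 0.129 times the reference.

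**Figure D1:**
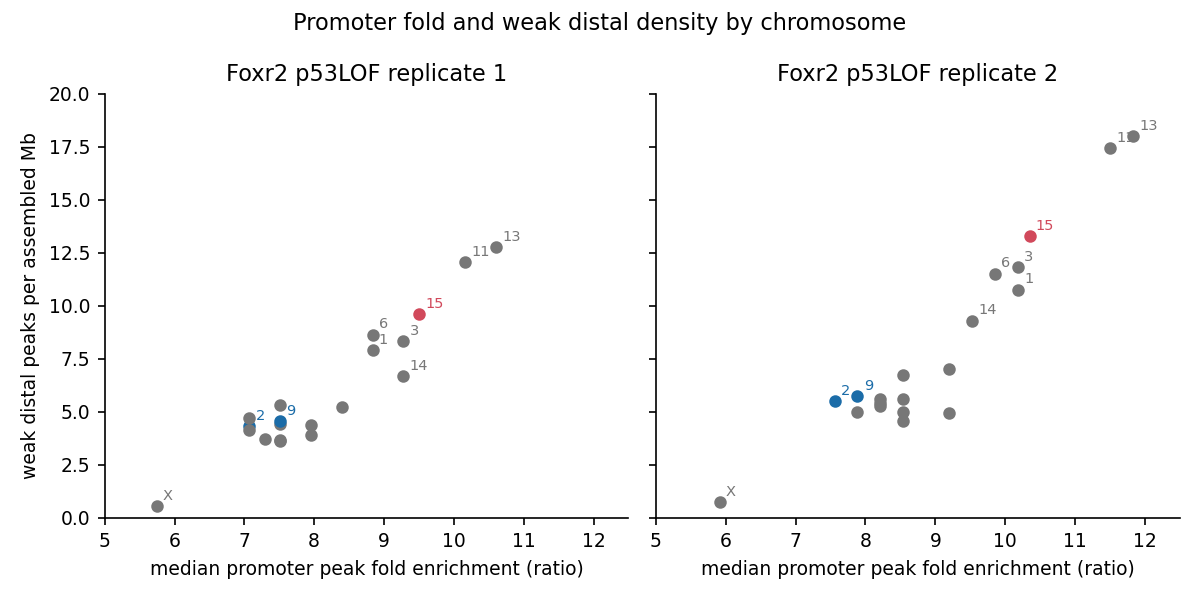
Each point is 1 chromosome, placed by the median fold enrichment of its promoter peaks (x axis, ratio) and by its weak distal peaks per assembled Mb (y axis), with 1 panel per Foxr2 p53LOF replicate. Chromosome 15 (red) lies behind chromosomes 13 and 11 in both panels, chromosomes 2 and 9 (blue) lie in the lower cluster of autosomes (unnamed points included), and the X chromosome is lowest.

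The ratio of called promoter folds was not the same at every percentile. At the 5th percentile the folds of chromosome 15 equaled those of the reference in both replicates, at 3.98 in replicate 1 and 3.61 in replicate 2, near the lowest folds that were called. At the 10th percentile the ratio was 1.0 in replicate 1 and 0.923 in replicate 2. The ratio was 1.23 and 1.06 at the 25th percentile, 1.36 and 1.44 at the 75th, 1.5 and 1.44 at the 90th and 1.46 and 1.5 at the 95th. The upper part of the distribution thus lay further above the reference than the median did, and the folds at the 10th percentile did not lie above it. Peaks are called only above a limit of fold, which bounds the low percentiles on every chromosome. These percentiles therefore cannot show whether the shift was even. In promoters grouped by the GC content of the 200 bases at the summit and weighted as on chromosome 15, the ratio was 1.31 ± 0.0294 (SD, n = 2). Single GC classes ran from 0.941 to 1.59 in replicate 1, where 1 of 10 lay below 1, and from 0.812 to 1.62 in replicate 2, where 3 of 11 did. Median GC content at promoter summits was 60.5% and 58.0% on chromosome 15, 60% and 59.5% on chromosome 2, and 59.5% and 58.5% on chromosome 9.

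**Figure D2:**
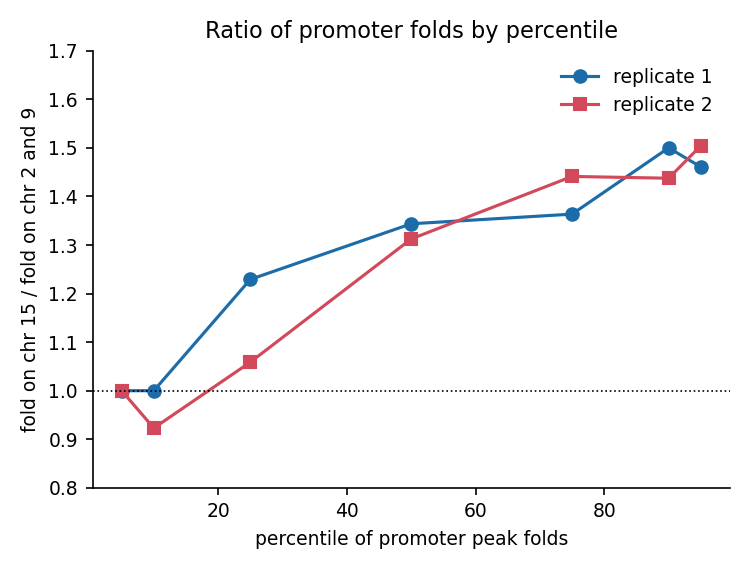
The ratio of promoter peak folds on chromosome 15 to those on chromosomes 2 and 9 (y axis) is drawn at 7 percentiles of the fold (x axis), with 1 line per replicate and a dotted line at a ratio of 1. The ratio starts at 1.0 at the 5th percentile and reaches 1.46 and 1.5 at the 95th.

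Along the chromosome, the raised promoter folds were not confined to 1 stretch. Of the 21 windows, 18 held at least 5 promoter peaks in each replicate, and in 15 of these (83.3%) the window median lay above the reference median in both replicates. The same held for 59.8% of the 423 such windows on all other autosomes, for 7 of 34 on chromosome 2 and for 8 of 25 on chromosome 9. The level is set by chromosomes 2 and 9 themselves, so their own low counts follow in part from its choice. Chromosome 15 comes after chromosomes 13 (100%), 1 (90.9%), 11 (88.0%) and 14 (87.5%) by this count and just before chromosome 3 (81.5%). With the median of all other autosomes as the level, 7.95 and 8.87, the count was 10 of 18 windows (55.6%) against 36.6% on the other autosomes, 1 of 34 on chromosome 2 and 2 of 25 on chromosome 9. Window medians ran from 7.29 to 10.6 in replicate 1, where all 18 lay above the reference of 7.07. They ran from 7.06 to 12.8 in replicate 2, where 15 lay above the reference of 7.88. The exceptions in replicate 2 were window 1, at the centromeric end, with 7.06 over 8 promoter peaks, and windows 7 and 15, which equaled the reference. In replicate 1 the median of window 1 was 9.72 over 7 promoter peaks, so the replicates place it on different sides of the reference. The highest window median in replicate 2 was 12.8 in window 12, chr15:55000001-60000000, where replicate 1 had 10.2. Divided into 3 equal lengths, the chromosome gave ratios to the reference of 1.34 and 1.21 in the centromeric segment, 1.31 and 1.19 in the middle and 1.38 and 1.38 in the telomeric segment, which holds 362 and 371 of the promoter peaks.

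**Figure D3:**
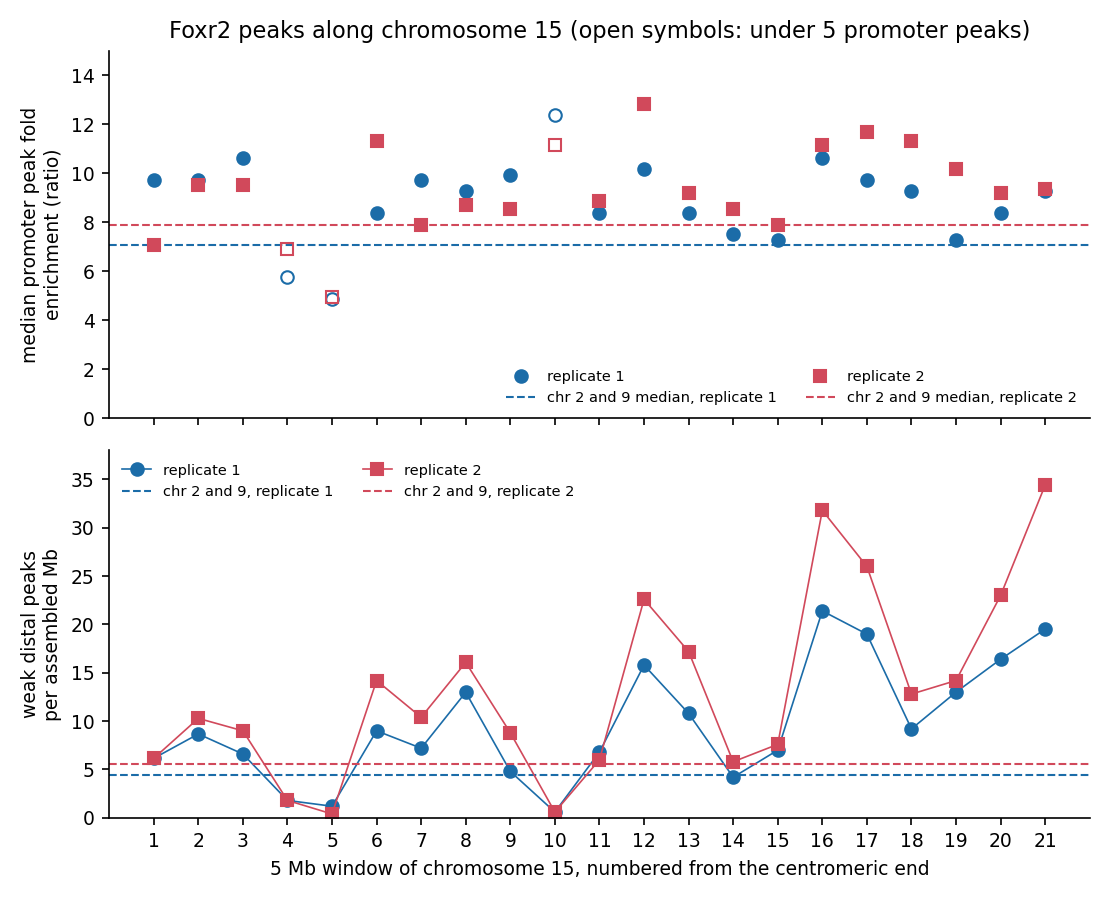
The upper panel gives the median fold enrichment of promoter peaks (ratio) and the lower panel the weak distal peaks per assembled Mb, both by 5 Mb window of chromosome 15 numbered from the centromeric end, with 1 color per replicate and dashed lines for chromosomes 2 and 9. Most window medians lie above the dashed lines along the whole length, while the weak distal density falls to between 0.4 and 1.8 per Mb in windows 4, 5 and 10 and rises to between 16.4 and 34.4 in windows 16, 17, 20 and 21.

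The density of weak distal peaks varied widely between windows. Windows 4, 5 and 10, with 2, 3 and 2 protein-coding genes, held 1.8, 1.2 and 0.6 weak distal peaks per Mb in replicate 1 and 1.8, 0.4 and 0.6 in replicate 2. Each of these gene-poor windows had a single promoter peak per replicate, at Cdh10, Cdh18 and Csmd3. Window 16, chr15:75000001-80000000, holds 159 genes and had 21.4 and 31.8 weak distal peaks per Mb. Window 21 at the telomeric end, with 112 genes, had 19.5 and 34.4 per Mb. In windows with fewer than 20 genes the median density was 4.5 and 5.9 per Mb on chromosome 15, over 8 windows with more than 2 assembled Mb (window 1 has 1.95), and 3.6 and 3.4 on chromosomes 2 and 9. In windows with 20 to 49 genes it was 8.67 and 10.4 against 3.5 and 4.85. In the 5 windows with 50 genes or more it was 19 and 26 against 5.25 and 6.8. The classes are not matched in gene number, with a median of 11.5 genes on chromosome 15 and 16 on the reference in the lowest class, 29 and 36 in the middle one and 92 and 70 in the highest, and the part of this in the differences was not tested. Windows 12 and 13 also had a high density for their gene number, with 15.8 and 22.6 per Mb at 33 genes and 10.8 and 17.2 at 12 genes.

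**Figure D4:**
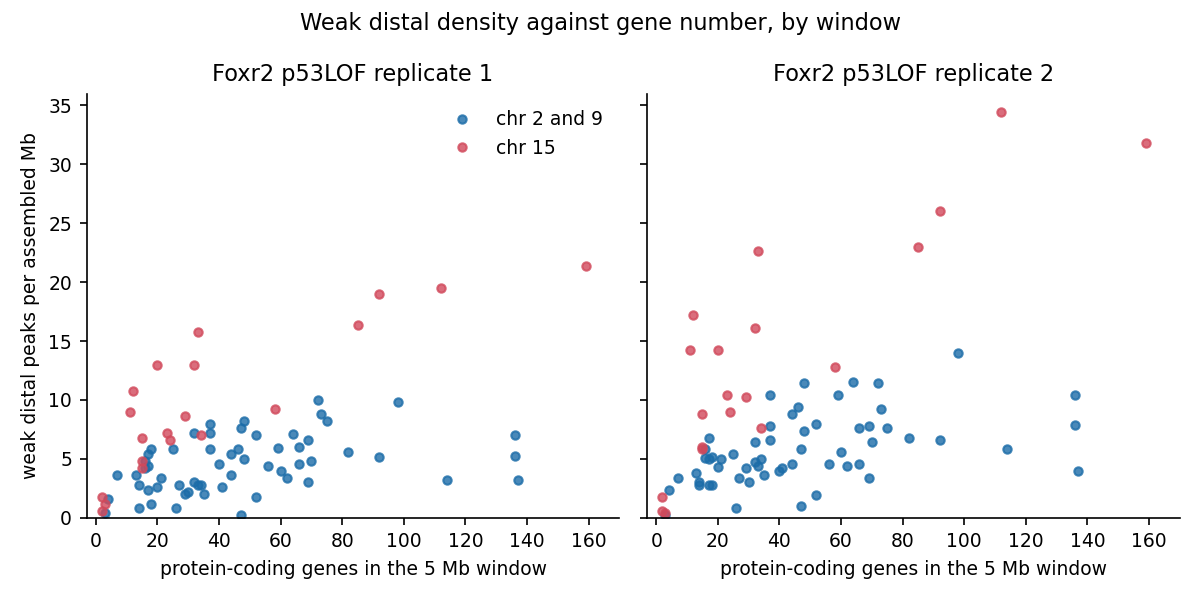
Each point is a 5 Mb window, placed by its number of protein-coding genes (x axis) and its weak distal peaks per assembled Mb (y axis), in 1 panel per replicate, for chromosome 15 (red) and chromosomes 2 and 9 (blue). On chromosome 15 the windows with 50 genes or more lie at 9.2 to 21.4 per Mb in replicate 1 and 12.8 to 34.4 in replicate 2, against at most 10 and 14 on chromosomes 2 and 9.

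Of the weak distal peaks of chromosome 15, 51.1% and 53.4% lay in gene bodies, against 54.9% and 55.5% on chromosome 2 and 56.6% and 57.5% on chromosome 9. The share that overlapped any peak of the other replicate was 50.0% in replicate 1 and 29.6% in replicate 2, against 57.8% and 33.9% on chromosome 2 and 55.7% and 35.6% on chromosome 9, so it was lower on chromosome 15 in both replicates. Just inside the limit of 6 were 64 peaks at a fold of 5.74 in replicate 1 and 53 at 5.91 in replicate 2, and just outside were 65 at 6.19 and 39 at 6.24. Distal density was also counted above a floor of fold in place of below a limit, a setting chosen after the data were seen. Above a fold of 4.5 on every chromosome, chromosome 15 had 5.89 and 7.83 distal peaks per Mb against 2.97 and 4.11 on the reference, a ratio of 1.94. With its floor raised in proportion to its promoter ratio, to 6.05 and 5.91, it had 3.34 and 4.41 per Mb, a ratio of 1.12 and 1.07. The scaled floor rests on the promoter ratio for which the chromosome was selected, and raising it lowers the count by construction.

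Cbx5, Kansl2 and Tef stood far above both their chromosome and their neighbors. Cbx5 lies on the reverse strand at chr15:103191544-103239816, and its site, chr15:103238758-103243808, had a fold of 70.7 in replicate 1 and 99.2 in replicate 2. These are 159 and 301 fragments at the summit, with 95% Poisson intervals on the fold of 60.2 to 82.5 and 88.5 to 111, which cover counting error only. The summits lie 301 and 311 bp upstream of the Cbx5 start and 315 and 305 bp from the start of Hnrnpa1, a splicing regulator transcribed in the other direction, so they lie between divergent starts. Against the median of window 21 the site was 7.62 and 10.6 times higher, and against the chromosome median 7.44 and 9.59 times. The other promoter peaks within 1 Mb, 24 and 26 in number, had medians of 8.84 and 9.36, which is 1.25 and 1.19 times the reference and below the chromosome's own medians of 9.50 and 10.3. The highest of them reached 33.1 and 63.4, at Sp1, a zinc finger factor that binds GC boxes.

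Kansl2 lies on the reverse strand at chr15:98517658-98534264, and its site, chr15:98531955-98535109, had folds of 59.6 and 74.2 from 134 and 225 fragments. Both summits fall in the untranslated part of an exon, 144 and 84 bp from the nearest of its annotated starts, at 98534244. The folds were 7.11 and 8.07 times the median of window 20 and 6.28 and 7.17 times that of the chromosome. Its neighborhood had the lowest medians of the 3: the 43 other promoter peaks within 1 Mb in each replicate had medians of 7.51 and 8.54, 1.06 and 1.08 times the reference and also below the chromosome's own. The highest of these neighbors had folds of 26.1 and 32.2.

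Tef lies on the forward strand at chr15:81802421-81826863, and its site, chr15:81809494-81812732, had folds of 54.8 and 63.4 from 123 and 192 fragments. Its summits are intronic, 114 and 106 bp from an internal start of the gene. The folds were 5.64 and 5.44 times the median of window 17 and 5.77 and 6.13 times that of the chromosome. Its neighborhood had the highest medians of the 3, since the 33 other promoter peaks within 1 Mb had medians of 11.9 and 14.5, 1.69 and 1.83 times the reference and above the chromosome's own. Over this local level Tef was 4.59 and 4.39 times higher.

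Dividing by the chromosome or by the window changed the order of the strongest promoters little. By the lower of the folds of both replicates, Cbx5, Kansl2 and Tef rank 1, 3 and 6 among 11056 promoter sites, a site being a stretch covered by a peak of each replicate. Peaks that overlap a control peak were left out of the sites, since promoter peaks on chromosomes 1, 2, 9 and 14 that reach higher folds than Cbx5 would otherwise come first. Divided by the promoter median of their own chromosome they rank 1, 5 and 6, and divided by the median of their own window 1, 2 and 8. Further down the order the correction took more away. Chromosome 15 holds 482 of the 11056 promoter sites (4.36%), and it held 11 of the 100 highest before the division, 6 after division by chromosome and 7 after division by window. Of the 500 highest it held 41, then 28 and 31. The 3 promoters were chosen for their high folds, so their distance from a median is given by that choice. Of the 3 neighborhoods only that of Tef had medians above those of the chromosome.

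**Figure D5:**
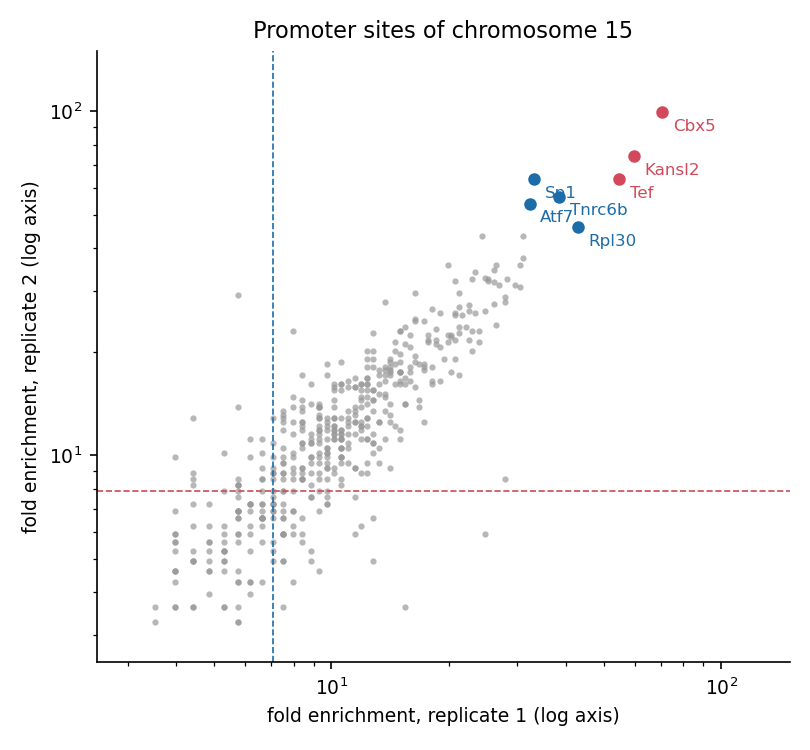
Each point is a promoter site of chromosome 15, placed by its fold enrichment in replicate 1 (x axis) and replicate 2 (y axis), both on log axes, with dashed lines at the median promoter fold of chromosomes 2 and 9. Cbx5, Kansl2 and Tef (red) have higher folds in replicate 1 than the next 4 sites by lower fold (blue), of which Sp1 equals Tef in replicate 2, and than the rest of the 482 sites (gray), whose median lower fold is 9.40.

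Below these 3, the next promoters by lower fold lie in windows 7, 9, 17 and 21. Rpl30, a ribosomal protein gene in window 7, had folds of 42.9 and 46.0. Tnrc6b, a partner of Argonaute in microRNA silencing, had 38.4 and 56.5, and Sp1 had 33.1 and 63.4. Atf7, a bZIP factor of the CRE-binding group, had 32.3 and 53.9. Mtdh had 30.9 and 37.5, Rbx1, the RING subunit of cullin ubiquitin ligases, 30.9 and 43.4, and Eny2, a subunit of the SAGA and TREX-2 complexes, 30.5 and 30.9. Replicate 2 gave the higher fold at all of these, as it did at 69.1% of the 482 promoter sites.

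The strongest promoter of a window varied along the chromosome. From the centromeric end, AW549877 in window 1 had folds of 12.8 and 22.7, Nipbl (the cohesin loader) 19 and 16.4, and Tars (threonyl-tRNA synthetase) 22.5 and 21.7. Basp1, a growth cone protein, led window 6 with 20.3 and 22, and Pabpc1, the poly(A)-binding protein, led window 8 with 29.6 and 31.2. In the middle, Utp23 had 14.1 and 14.1, Trib1 (a pseudokinase) 24.3 and 43.4, and Fam84b 16.3 and 15.8. Ndrg1 led window 14 with 13.3 and 16.1, and Chrac1, a histone-fold protein of chromatin remodelers, led window 15 with 19.9 and 22.3. Toward the telomere, Eef1d (a translation elongation factor) had 28.3 and 32.5, Plxnb2 (a semaphorin receptor) 22.1 and 23.7, and Cntn1 (a neural adhesion molecule) 22.5 and 26.3. In the gene-poor windows the cadherin genes Cdh10 and Cdh18 had only 5.74 and 6.90, and 4.86 and 4.93, below the reference medians, whereas Csmd3 had 12.4 and 11.2.

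Chromosome 15 held 2 of the 10 and 12 of the 100 highest distal sites of the genome by lower fold, 1 and 8 after division by the promoter median of the chromosome and 2 and 7 after division by that of the window. Among distal sites without a control peak, the one within Trio had folds of 50.8 and 56.2, near those of Tef. The next ones by lower fold were nearest to Tuba1c (an alpha tubulin gene) with 32.3 and 37.1, Ppara (a nuclear receptor for fatty acids) with 28.3 and 37.5, Atf7 with 27.8 and 35.5, and Creld2 with 24.7 and 29.2. Chromosome 15 holds 848 of 13566 distal sites (6.25%), a larger share than its 4.36% of promoter sites.

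By gene function, promoter peaks were called at all of the listed regulators and housekeeping genes and at few of the listed tissue-restricted genes. The lists were chosen with earlier results of these data known, and they hold Cbx5, Kansl2 and Tef, which were taken for their high folds, so their counts and medians are descriptions only. They are not full sets: transcription factor genes outside the list of factors include Vdr, with folds of 6.63 and 7.23, Mafa, with 4.86 and 5.59, and Nfe2, with 3.98 and 5.59, and the Hoxc genes stand among the tissue-restricted ones. Of its 781 protein-coding genes with an annotated protein-coding transcript, 471 (60.3%) had a promoter peak in both replicates, against 51.9% of 21670 genes in the genome, 46.9% on chromosome 2 and 51.8% on chromosome 9. The median fold of such genes was 10.6 and 12.2 on chromosome 15 and 9.28 and 10.5 over all chromosomes. All 14 chromatin regulators listed had a peak in both replicates, with medians of 15.2 and 16.4. Besides Cbx5 and Kansl2 the highest was Arid2, a subunit of the PBAF remodeler, with 27.8 and 28.9. The lowest was Cbx7, a Polycomb chromodomain gene, in replicate 1, with 5.74 and 8.21, and Hdac7, a histone deacetylase gene, in replicate 2, with 7.51 and 4.93. Ep300, a histone acetyltransferase, had 14.6 and 16.1, and Kmt2d, a histone H3 lysine methyltransferase, 15.9 and 22.3. All 14 transcription factors listed had a peak in both replicates, with medians of 15.9 and 18.6. Myc, the proto-oncogene, had folds of 13.7 and 16.4 and Sox10, a factor of the oligodendrocyte lineage, 14.1 and 18.1, near the medians of their list. Klf10 reached 20.8 and 32.2, and Trps1 was the lowest with 8.39 and 8.87.

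Of 12 neural and glial genes, 10 had a peak in both replicates, with medians of 11.5 and 17.1. Tuba1a, the alpha tubulin of young neurons, had 25.2 and 32.2, whereas Shank3, a scaffold of the synapse, had 7.51 and 5.91. Gpd1 differed most between the lists, with 5.74 and 29.2, and the replicate 2 peak that reaches its start has its summit farther upstream. Pdgfb had no promoter peak in either list, and Prph, a neuronal intermediate filament, had 1 in replicate 1 only, with a fold of 3.09. The 16 housekeeping genes all had a peak in both replicates, with medians of 13.9 and 15.4 and a low of 6.19 and 6.24 at Tomm22, a receptor of the mitochondrial import pore. Of 22 tissue-restricted genes, only Cdh10, Csmd3 and Ghr had a peak in both replicates, Angpt1 had 1 in replicate 2 only with a fold of 5.26, and 18 had none. The 18 include all 9 Hoxc genes listed, patterning genes of the trunk, and all 5 keratin genes listed, both within window 21, where Cbx5 lies. The window that holds the highest promoter fold thus also holds promoters with no called peak.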

How the data were processed

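CUT&RUN with an antibody against V5 was carried out on 2 Foxr2 p53LOF and 2 V5 control libraries, grouped by their titles. Per the submitters' processing notes and the methods, the authors trimmed reads with Trimmomatic 0.39, aligned them to mm10 with BWA 0.7.17, removed duplicates with Picard 2.26.6 and called peaks with MACS2 2.2.7.1. HOMER 4.11 is also named. Each list belongs to 1 library, replicates were not pooled, and an input library is not given in the sources used here. In these deposited lists MACS2 wrote the fold enrichment as a ratio, the p and q of each peak as −log10 values, and a score of 10 times the −log10 q, which was not used here.

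For each library, values between 0.3 and 4 (step 0.0005) were tried as background, and the one was kept at which folds up to 30 give whole fragments, within 0.02, and Poisson p-values that match the deposited ones, which held for 100% of these peaks. All deposited peaks were used, also those that the filters of the methods remove (735 and 786 chromosome 15 peaks pass them), so that weak peaks could be counted, except that sites and their ranks leave out peaks overlapping a control peak by at least 10 bp. Genes came from GENCODE release M21 on GRCm38, the build of mm10, and sequences were read from RefSeq's GRCm38.p6. Assembled Mb leave out unknown bases. Analyses used Python 3.11.15, numpy 2.4.6, pandas 2.3.3 and scipy 1.17.1. The tests on simulated data covered the recovery of the background, the promoter ratio and the window counts.

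The chromosome, the 3 promoters and the gene lists were chosen with earlier results of these data known. Named genes are these 3, the strongest promoter site of each window, the 10 strongest promoter and 5 strongest distal sites, and members of the lists. Outside this rule, Hnrnpa1 (which shares the Cbx5 site), Cyb5r3, Vdr, Mafa and Nfe2 were chosen after their values were seen. Ranks use the lower fold of both replicates. The alternatives covered the promoter window, the filters, sites in place of peaks, the reference, the 75th percentile, GC content, the weak and distal limits, window size and each replicate alone. Comparison with all other autosomes by window, removal of control peaks from the promoter ratio and the floors of 4.5 were added after the data were seen.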

Additional observations from a re-analysis of the deposited data

How the results depend on the processing

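No result changed direction under the alternatives run for this section. The 10th percentile of promoter folds, which was not among them, gave ratios of 1.0 in replicate 1 and 0.923 in replicate 2. The promoter ratio of 1.33 to chromosomes 2 and 9 was 1.21 with a promoter window of 2 kb, 1.26 in filtered peaks, 1.18 against all other autosomes, 1.36 against chromosome 2, 1.29 against chromosome 9, 1.40 at the 75th percentile and 1.38 for fragments above background. It was 1.31 without replicate 1 and 1.34 without replicate 2, and 6 of its 13 alternatives moved it by less than the spread between replicates. With 2 replicates, leaving 1 out does so by construction, and the removal of control peaks left the ratio at 1.33. The weak distal ratio of 2.27 was 1.6 against all other autosomes and 2.00 for peaks called in both replicates. For all distal peaks above a floor of 4.5, strong ones included, the ratio was 1.94, and 1.10 with the floor scaled by the promoter ratio. Both floors were chosen after seeing the data. Without replicate 1 the weak distal ratio was 2.37, and 2.17 without replicate 2. The share of windows above the reference ran from 55.6% to 100% over its 6 alternatives. On the other autosomes the share was 36.6% where chromosome 15 had 55.6%, and 64.2% in windows of 10 Mb, where chromosome 15 had 100%. Without replicate 1 chromosome 15 had 83.3% and the other autosomes 68.15%, and without replicate 2 they had 100% and 69.6%. The fold over the window median, 9.11 for Cbx5, was 7.62 to 10.6 with a replicate left out. For Kansl2 it was 7.59, with 6.73 over the chromosome median and 7.11 to 8.07 with a replicate left out. For Tef it was 5.54, with 5.95 over the chromosome median, 4.49 over promoters within 1 Mb and 5.44 to 5.64 with a replicate left out. Causes of these differences were not tested. No paired analysis was possible because the results come from no test, while every ratio was already taken within a replicate.

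With 2 libraries of 1 line, technical and biological spread cannot be told apart, and a peak list shows no read total. Folds near the calling limit rest on few fragments, such as 6 at the lowest fold of replicate 1. Weak peaks that were not called are not counted, and peaks lost or gained at the limit move the densities.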
